A study of Mus musculus with 16 samples.

Results

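The baseline transcriptome described here is that of the heart apex in the control group, 4 of the 16 arrays of a study of AKT1 and AKT2 in the heart. Its members were the 4 arrays titled as control, chosen by that label and by no measured value. Each array held RNA of the apex of 1 heart, from male C57Bl/6 mice of 3 months. The control mice were heterozygous for MHC-mercremer, a transgene in which the αMHC (Myh6) promoter drives a Cre recombinase fused to hormone-binding domains of the estrogen receptor, and they carried no loxP-flanked Akt gene. For 5 days they were injected daily with 500 µg of hydroxytamoxifen, and hearts were removed 21 days after this induction, although the sample titles call them untreated. The design text gives the age of 3 months both for the injections and for the harvest. The group is therefore a control for Cre and tamoxifen and not a heart free of both, and no array of this study holds such a heart. The other 12 arrays, from mice with floxed Akt1, Akt2 or both and the same Cre and tamoxifen, were not compared with it. Nothing in the labels speaks of pooled hearts or of repeated extracts, so each array was taken as 1 animal.

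The apex is the lower tip of the ventricles. Its mass is mostly cardiomyocytes, which contract by sliding myosin along actin under the control of the troponin complex and calcium, and which burn fatty acids in densely packed mitochondria. By number most cells of a mouse heart are others, among them endothelial cells, fibroblasts, pericytes, smooth muscle cells and macrophages. Many genes of contraction and metabolism exist as paralogs, of which the adult ventricle uses its own set, and the atria, the fetal heart and skeletal muscle use others. RNA of all these cells was mixed before labelling, so fewer cells of a type and less RNA per cell cannot be told apart.

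A level is log2 of the background-subtracted spot intensity minus log2 of the 75th percentile of the probes on the same array, so 0 means as bright as that percentile and 1 unit is a factor of 2. The probe with the highest mean stands for its gene. A gene was called on when that probe lay well above background on 4 of 4 arrays by the scanner software's flag, off when no probe of it did so on any array, and mixed otherwise. The 75th percentile was 408, 489, 464 and 436 intensity units on replicates 1 to 4, and 50.3%, 52.8%, 47.8% and 44.7% of 56568 probes lay well above background. Replicates 1 and 2 lay on slide 1 and replicates 3 and 4 on slide 2. The 99th percentile of the 308 negative control spots was 20.9 and 20.4 on slide 1 against 90.4 and 184 on slide 2, so dim probes were measured less cleanly on slide 2. With 4 arrays, their number sets the precision.

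Of 22892 genes with a symbol 12989 (56.7%) were on, 2318 mixed and 7585 (33.1%) off. Among protein-coding genes 12434 of 19997 (62.2%) were on, and among long noncoding RNA genes 442 of 2591 (17.1%). Counts of protein-coding genes on in the families and lists below are to be read beside the 62.2%. Of the 791 protein-coding genes of the X chromosome 47.4% were on. The 4 of 21 protein-coding genes of the Y chromosome that were on were Ddx3y, Eif2s3y, Kdm5d and Uty, and Xist, the RNA that silences an X chromosome in females, was off. The label says male. Probes drawn from RefSeq messenger RNAs were on in 58.4% of cases, those from Ensembl transcripts in 31.1%, those from genome intervals in 28.7% and those from RefSeq noncoding RNAs in 22.9%.

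Levels of the genes that were on spanned 13.3 log2 units, from -3.21 to 10.08, with a median of 1.40. The 10 brightest genes held 4.41% of the summed signal of all genes, the 100 brightest 27.5% and the 1000 brightest 70.2%. In all 334 genes held 50% of it. The level at rank 100 was 8.49 and that at rank 1000 was 5.27.

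**Figure D1:**
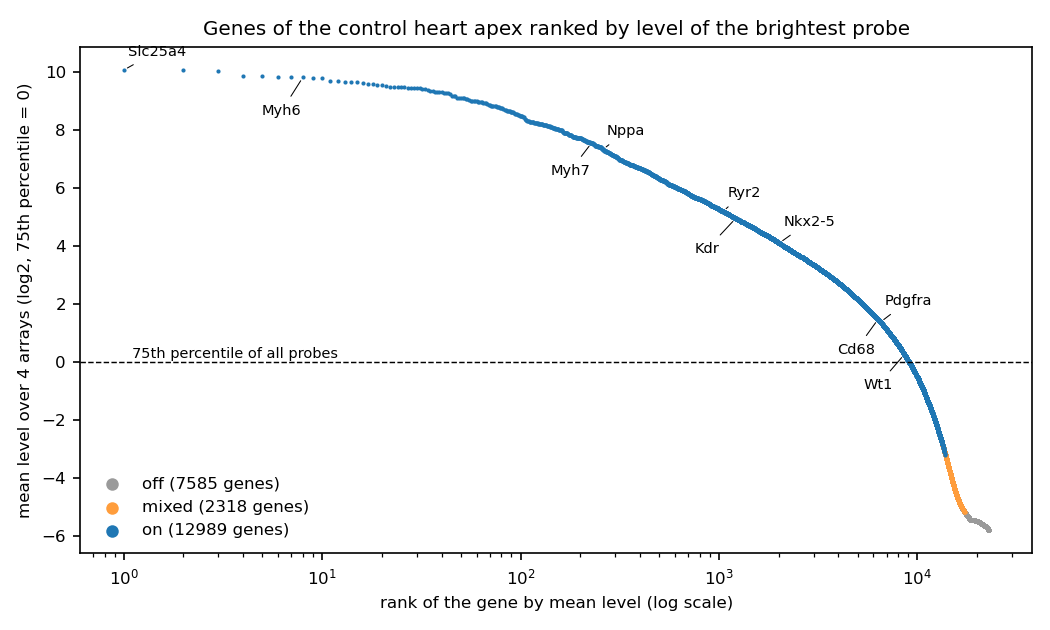
Mean level over 4 control arrays (log2, 75th percentile of all probes = 0) of each of 22892 genes against its rank on a log axis, coloured by detection. The curve is flat over the first 25 ranks, near 10, and the genes called off form the tail below -5.

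A rank orders the signals of probes, not numbers of transcripts, because probes differ in how strongly they bind. In the 4109 genes with at least 2 probes on, the brightest and dimmest such probes differed by a median of 2.16 log2 units, with a 90th percentile of 4.63. The SD between probes of a gene was 1.42 at the median, against 2.33 between genes. Of 7896 genes with several probes 3597 had every probe on, 1103 had every probe off, and 1308 had at least 1 probe on and at least 1 off. Levels of different genes are therefore given as descriptions and were not tested against each other. The spread of a gene over arrays compares 1 probe with itself, but it still depends on how bright that probe is. The median SD over arrays was 0.081 for genes on above the 75th percentile and 0.16 for those below.

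The 25 brightest genes with a proper name were mostly those of contraction and of mitochondrial energy supply. Slc25a4, the adenine nucleotide translocase that exports ATP from mitochondria, ranked first at 10.21, 9.90, 10.04 and 10.16 on replicates 1 to 4. Myl3, the essential light chain of ventricular myosin, followed at 10.18, 9.95, 10.02 and 10.12. Cox6a2, the heart and muscle form of a cytochrome c oxidase subunit, read 10.18, 9.95, 9.92 and 10.07. For these genes replicate 1 was the highest array, but the arrays differed by less than 0.5 units. The other contractile genes were Myl2 (9.88), Myh6 (9.83), Mybpc3 (9.79), Actc1 (9.57), Tnnt2 (9.50) and Tnni3 (9.50). The energy genes were Cox7a1 (9.83), Atp5a1 (9.68), Uqcrq (9.59), Atp5g1 (9.59), Atp5b (9.50) and Atp5o (9.50) of the respiratory chain and ATP synthase, Aldoa (9.85) and Gapdh (9.65) of glycolysis, Mb (9.81), which stores oxygen, and Fabp3 (9.50), which carries fatty acids. Chchd10 (9.87), a mitochondrial protein, the chaperone Hspb7 (9.58) and the mitochondrial glutaredoxin Glrx2 (9.71) also belonged to them. The remaining names were Kctd14 (9.63), Zfp628 (9.51) and Exosc2 (9.47). Of the 25 genes 14 rest on 1 probe each, among them these remaining names and Myl3, Cox6a2, Myl2 and Mb.

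The 25 genes lay within 0.61 log2 units of each other, which is less than the usual gap between 2 probes of a gene, so their order carries no weight. Their SDs over arrays ran from 0.054 to 0.17. Replicate 1 was highest in 23 of the 25 and replicate 2 lowest in 17. Of all genes on above the 75th percentile, 47.5% were highest on replicate 1 and 11.7% lowest on replicate 2. No gene among them was flagged as saturated. Of the 11 with more than 1 probe, every probe was on.

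Subunits of the respiratory chain and ATP synthase made up 31 of the 100 brightest genes and 79 of the 1000 brightest. These were 92 on of 93 measured, counted by their symbols. Complex I gave 11 of the 100, ATP synthase 10, cytochrome c oxidase 5, complex III 4 and complex II 1. Cytosolic ribosomal proteins gave 2 of the 100 and 79 of the 1000, with 95 of 99 on. The median level was 8.81 for ATP synthase, 7.71 for complex I and 6.80 for the ribosomal proteins.

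Some bright signals came from genes not known as heart genes, and most of these rest on a single bright probe. Milr1, a mast cell receptor, read 9.37, 9.21, 9.32 and 9.36, with 2 of its 4 probes on and its dimmest probe at -5.22. Slc10a1, the bile acid importer of the liver, read 9.16, 9.12, 9.20 and 9.23, with its second probe off on every array. For the transcription factor Elk1 (9.46) and the Mediator subunit Med16 (9.44) the second probe was on, at -1.38 and 0.25. The arrays agreed closely for each of these genes, so the discord lay between probes and not between mice. The sequence and position of the probes in their transcripts were not used here, and what these probes bind was not tested. Discord between probes was not limited to such genes. With the mean of all probes in place of the brightest, Tpm1 moved from 9.28 to 2.52 and Casq2 from 7.54 to 4.33. Cacna1c moved from 3.61 to 0.13. In all 84 of 211 named genes moved by more than their SD over arrays.

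The myosin heavy chains are the motors of the thick filament, and 9 of 14 were on. Myh6, the fast α chain of the adult mouse heart, read 9.95, 9.72, 9.76 and 9.88. Myh7, the slow β chain that dominates before birth, read 7.40, 7.59, 7.48 and 7.78. Myh7b, a relative of Myh7, read 8.88, 8.82, 8.95 and 9.13. Replicate 4 was thus the highest array for Myh7 and Myh7b, and replicate 1 for Myh6. The nonmuscle and smooth muscle chains Myh14 (5.36), Myh9 (4.99), Myh10 (1.84) and Myh11 (0.91) were on too. The skeletal chains Myh1, Myh2 and Myh4, the embryonic chain Myh3 and Myh15 were off. Myh13 (9.45), an eye muscle chain, and Myh8 (8.98), the perinatal skeletal chain, were on at levels near that of Myh6. Myh13 rests on 1 probe, and the second probe of Myh8 was off on all 4 arrays. Whether their bright probes bind transcripts of a related chain was not tested.

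Myh6, Myh7 and Myh7b are also host genes, since each carries a miRNA of the muscle family known as the myomiRs in an intron. Their mature sequences in RefSeq (GRCm38.p6) are shown because these 3 hosts were bright, with the seed (bases 2 to 8) in capitals. They lie at chr14:54949072-54949093 on the minus strand for miR-208a-3p in Myh6, at chr14:54975710-54975731 on the minus strand for miR-208b-3p in Myh7, and at chr2:155622893-155622913 on the plus strand for miR-499-5p in Myh7b.
mmu-miR-208a-3p: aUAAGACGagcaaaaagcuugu
mmu-miR-208b-3p: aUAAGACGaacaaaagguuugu
mmu-miR-499-5p: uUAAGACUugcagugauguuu
The first pair share the seed UAAGACG, and miR-499-5p has UAAGACU. Mature miRNAs were not analysed here, and a host's level is not that of its miRNA. Mhrt, the long noncoding RNA transcribed across the Myh6 and Myh7 locus, was on at 4.44, 4.41, 4.21 and 4.33.

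Of the 12 myosin light chains 10 were on. Beside Myl3 and Myl2, the ventricular pair, these were Myl12a (7.42), Myl6 (6.10), Myl9 (5.43), Myl12b (3.96), Myl1 (3.70), Myl4 (1.07), Myl6b (-0.058) and Mylpf (-2.07). Myl7, the atrial regulatory chain, was above background on 3 of 4 arrays, and Myl10 on none. The 8 troponin subunits were on. The cardiac set Tnnt2 (9.50), Tnni3 (9.50) and Tnnc1 (7.55) headed them, followed by the slow skeletal Tnnt1 (3.71) and the fast skeletal Tnni2 (0.68), with Tnni1 (-0.40), Tnnt3 (-1.40) and Tnnc2 (-1.65) below the 75th percentile. The 6 actins were on, from Actc1 (9.57), the cardiac form, and Actb (7.86) to Acta1 (5.50), the skeletal form. Acta1 read 5.43, 5.27, 6.06 and 5.23, so replicate 3 stood above the other arrays. Among the other sarcomere genes Tpm1 (9.28), Tcap (9.32), Actn2 (9.12), Myom2 (8.97) and Ttn (7.46) were on, while Actn3, the fast muscle actinin, Mybph and Mybphl were off.

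**Figure D2:**
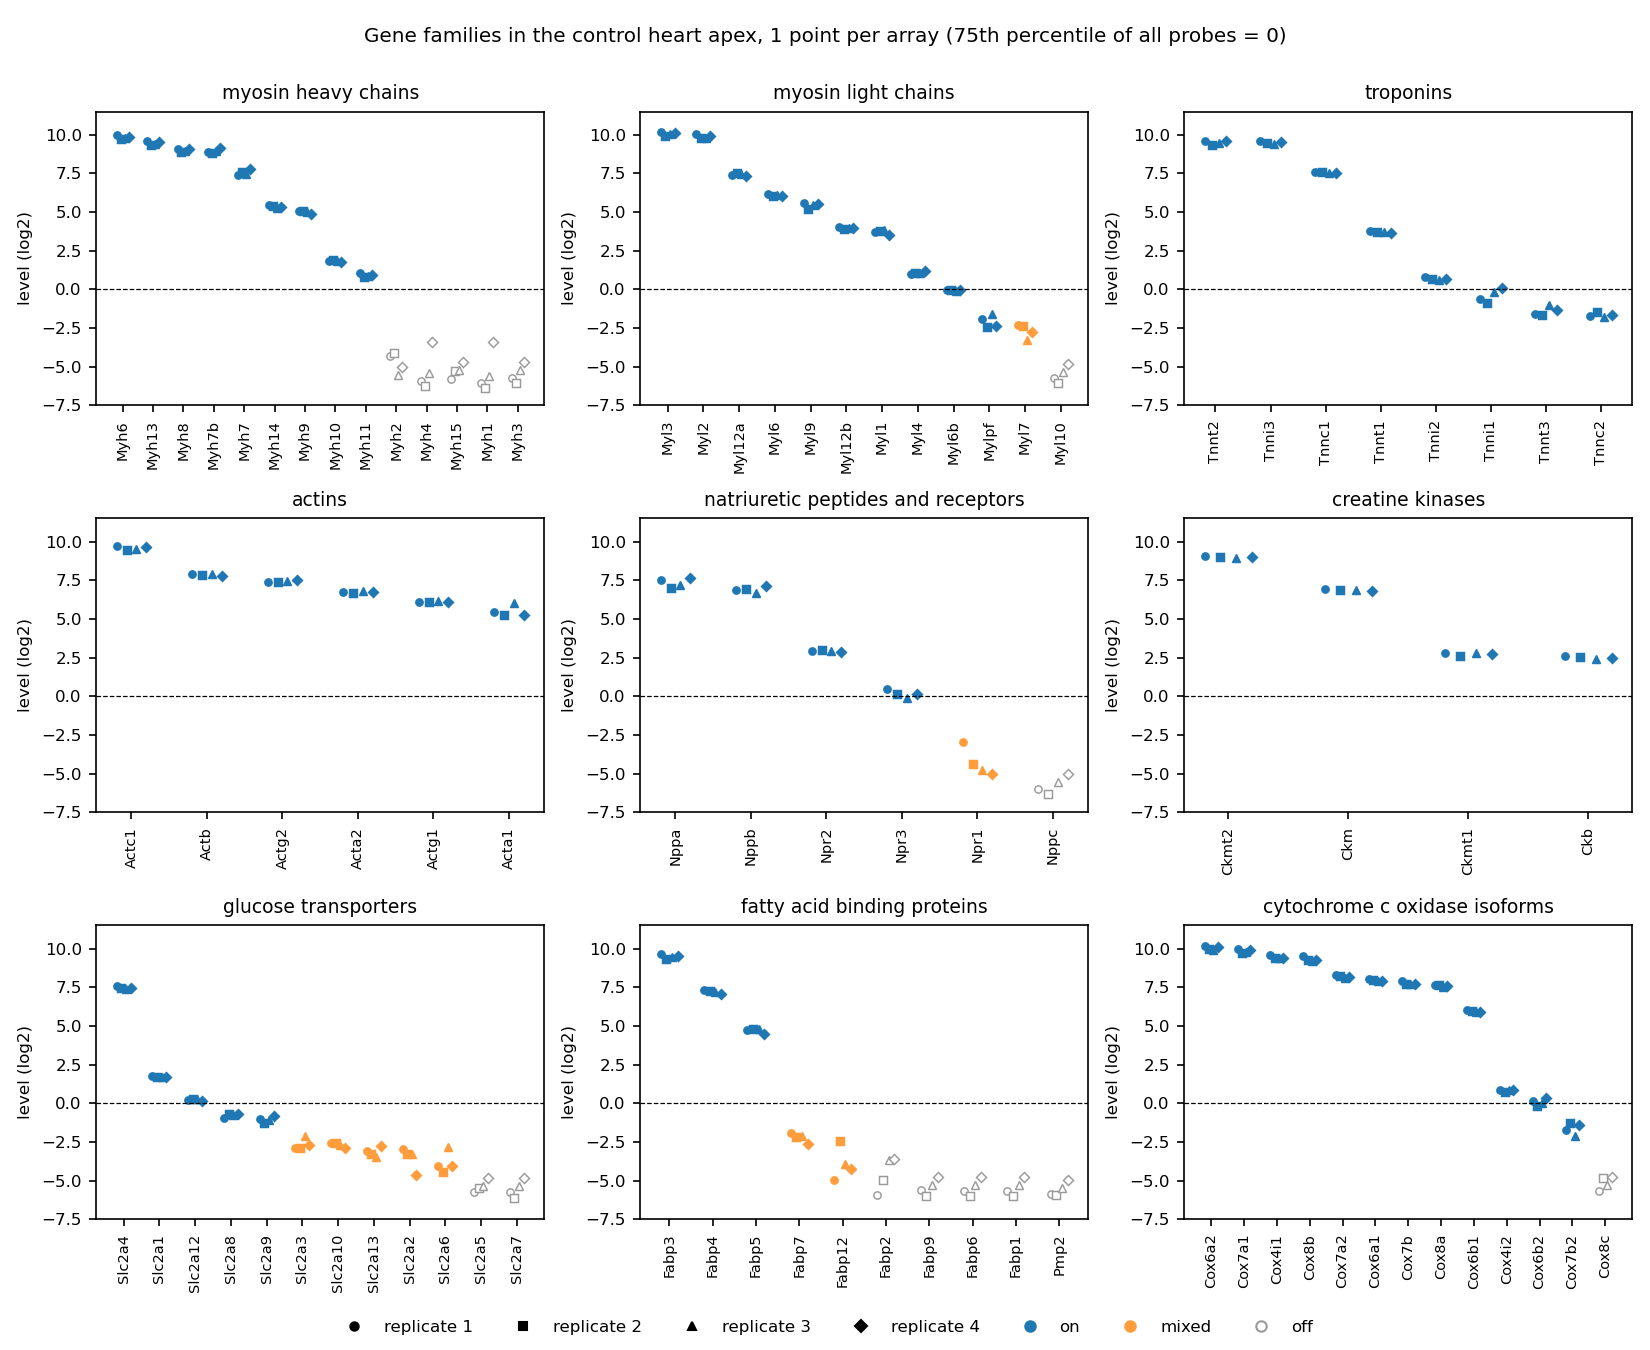
Level (log2, 75th percentile of all probes = 0) of each member of 9 gene families, with 1 point per array and a marker shape per replicate. Members that are on lie close together over the arrays, as for Myh6 at 9.72 to 9.95, while members that are off lie far below the dashed line and spread widely.

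Calcium drives each beat, entering through a channel and then leaving stores of the sarcoplasmic reticulum. Atp2a2 (8.46), the pump that refills the store, its inhibitor Pln (7.01), the release channel Ryr2 (5.20), the buffer Casq2 (7.54) and Hrc (8.48) were on. Sln, the pump inhibitor of atria and slow muscle, and Ryr1, the release channel of skeletal muscle, were off. Atp2a1 (3.90), the pump of fast muscle, was on. Of the L-type channels Cacna1c (3.61), the cardiac one, and Cacna1s (3.28), the skeletal one, were on, and Cacna1d was above background on 1 array. The exchanger Slc8a1, known as the cardiac form, read 1.0, 0.73, 0.61 and 0.73, and Slc8a3, known from brain and muscle, read 3.88, 4.04, 3.89 and 3.94. Slc8a1 had 2 of 3 probes on, and Slc8a3 had 1 of 2.

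Of 14 voltage-gated sodium channel genes 6 were on, among them Scn4b (3.34), a β subunit, 5 were mixed, and Scn1a, Scn9a and Scn11a were off. Of the pacemaker channels Hcn2 (5.36) and Hcn4 (-0.63), the sinus node form, were on. Of 15 inward rectifiers 9 were on, among them Kcnj2 (3.24) and Kcnj12 (2.64), which hold the resting potential, Kcnj3 (0.41) and Kcnj5 (3.78) of the acetylcholine-gated channel, and Kcnj8 (4.66) and Kcnj11 (2.44), which respond to ATP. Of 20 connexins, the channels that couple cells, 8 were on, with Gja1 (2.55) of the ventricular myocardium, Gja4 (1.53), Gjc1 (1.46) and Gja5 (-1.13) among them.

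Cardiomyocytes burn fatty acids and glucose. Of 12 glucose transporters 5 were on, among them Slc2a4 (7.46), which insulin moves to the surface, and Slc2a1 (1.72). Among cytochrome c oxidase isoforms 12 of 13 were on, and for 2 pairs the heart and muscle form and the general form read Cox6a2 (10.03) and Cox6a1 (7.95), and Cox7a1 (9.83) and Cox7a2 (8.19). Of the fatty acid binding proteins Fabp3 (9.50) of muscle, Fabp4 (7.21) of endothelium and fat, and Fabp5 (4.69) were on, and the liver and gut forms Fabp1 and Fabp2 were off. The creatine kinases Ckmt2 (9.01) and Ckm (6.87) of muscle were on. Pygm (6.99), Gys1 (4.21), Eno3 (8.82), Pgam2 (8.71) and Cpt1b (5.57) are the muscle forms of their enzymes and were on. Of liver forms in these families Pfkl (2.53), Cpt1a (2.46) and Pygl (0.74) were on, and Gys2 and Pklr were off. Ucp1, the uncoupler of brown fat, was off, although Cidea, a lipid droplet gene of brown fat, read 5.22, 5.21, 5.08 and 5.23.

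The natriuretic peptides lower blood pressure and volume. Nppa, secreted by atria and by stressed ventricles, read 7.51, 7.02, 7.18 and 7.64, an SD of 0.29 that exceeded the 0.10 of Myh6. Nppb read 6.89, 6.93, 6.65 and 7.11. Replicates 1 and 4 were the upper arrays for Nppa, and replicate 4 the highest for both. Nppc was off, the receptor Npr2 (2.93) and the clearance receptor Npr3 (0.17) were on, and Npr1 was above background on 1 array. Of the adrenergic receptors Adra1b (3.87) and Adrb1 (1.45) stood highest. The muscarinic receptor Chrm2 (1.18), the endothelin receptor Ednra (3.04) and the angiotensin receptor Agtr1a (2.94) were on, and Agtr2 was off.

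Among transcription factors of the heart Nkx2-5 (4.11), Tead1 (3.87), Srf (3.59), Gata4 (3.35), Gata6 (3.03), Tbx5 (2.75), Mef2a (4.45), Mef2c (3.24) and Irx4 (3.12), which marks ventricles, were on. With the mean of all probes Gata4 read 0.16, Tead1 1.47, Mef2a 2.65 and Mef2c 1.22. Nkx2-5, Srf, Gata6, Tbx5 and Irx4 kept their levels. Isl1, a factor of cardiac progenitors, was off, and Hand1 was above background on 1 array. No myogenic factor of skeletal muscle was on in 4 arrays: Myod1, Myf5, Myog and Pax7 were off, and Myf6 and Pax3 mixed. Of 39 HOX genes 6 were on and 27 off, and Hoxb6 (0.90) was the brightest. The 8 PPAR and ERR receptors and their coactivators, which set fatty acid use, were on, headed by Esrra (5.95). Esr1, the estrogen receptor, read 6.82, 6.97, 6.70 and 7.0. That level rests on 1 of its 6 probes, and 4 of the others were off on every array. The transgene of these mice carries estrogen receptor sequence, and its part in this signal was not tested.

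Of the fetal and stress genes that are used to mark a diseased ventricle 8 of 8 were on, beside 62.2% of all protein-coding genes. Among them were Ankrd1 (6.70), a titin-associated stretch sensor, and Gdf15 (-0.85), a secreted stress hormone. These values describe hearts that had received tamoxifen and hold no untreated heart to read them against.

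Marker lists of 25 cell types held 189 genes measured on the array, of which 131 (69.3%) were on, 24 mixed and 34 off. The cardiomyocyte list was on in 12 of 12, with levels from Nkx2-5 (4.11) to Myl3 (10.07). Of the ventricular list 4 of 5 were on and of the atrial list 3 of 8, a difference that was not tested, beside 62.2% of all protein-coding genes. Bmp10, Sln and Mybphl of the atria were off, and the atrial markers that were on were Nppa, Myl4 and Dkk3 (-1.08).

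Endothelial cells were represented by 12 of 12 markers, from Fabp4 (7.21) and Egfl7 (6.29) to Kdr (4.96), a VEGF receptor, and Pecam1 (1.27). Kdr read 5.03, 5.05, 4.84 and 4.91. Fibroblasts had 12 of 12, led by Gsn (7.74) and Dcn (7.73), a matrix proteoglycan that read 7.79, 7.65, 7.71 and 7.76. Pericytes, which wrap capillaries, had 8 of 8, and Rgs5 (4.55) among them had an SD of 0.029. Smooth muscle had 7 of 8, endocardium 3 of 3 and lymphatic endothelium 5 of 6, with Ccl21a (3.76) and Prox1 (3.13) highest. The 3 endocardial markers had SDs of 0.22 to 0.24, above the median of 0.094 over all genes on.

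Among the lists of immune cells that of macrophages and monocytes was the fullest, 11 of 12 on, led by Ly6c2 (6.64) and Csf1r (4.46). Whether the Ly6c2 signal includes transcripts of a related gene or of other cell types was not tested. Csf1r, the receptor for their growth factor, read 4.39, 4.42, 4.59 and 4.44. Ccr2, which marks recruited monocytes, was above background on 2 arrays. Mast cells had 5 of 6, T cells 5 of 7 and B cells 5 of 8. Neutrophils had 3 of 6, dendritic cells 2 of 6 and natural killer cells 1 of 6. Over all protein-coding genes the share on was 62.2%, so these counts by themselves do not show that such cells were present. Of the T cell probes 6 of 12 were on, and of the B cell probes 6 of 11. T cell marker Cd3e read 1.31, 0.85, 1.41 and 1.59 while Cd8a and Cd3g were off. The dendritic cell marker Siglech was bright (6.94) on 1 probe and off on its other, and Xcr1 and Clec9a of that list were off. The lists of lymphocytes lay mostly below the 75th percentile, where the flag of detection is least certain.

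Red blood cells were visible through globin RNA. Hba-a1 read 8.90, 9.32, 8.95 and 9.34 and Hbb-bt read 6.37, 6.97, 6.45 and 6.90, so replicates 2 and 4 were the upper arrays for both. The summed linear level of the list was 1024 and 1071 on replicates 1 and 3 against 1394 and 1407 on replicates 2 and 4. Epb42, a gene of the red cell membrane skeleton, was off. Hba-a1 and Hba-a2 are near-identical and their probes cannot be assumed to tell them apart. Of the platelet list 2 of 6 were on, 2 mixed and 2 off, beside 62.2% of all protein-coding genes. The 2 on were Pf4 (3.47) and Ppbp, which read -1.28, -1.37, -0.0058 and -2.46.

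Fat was not seen through its defining genes. Adipoq, Plin1, Cidec and Pck1 were off, and the members of that list that were on were Fabp4, which endothelium also expresses, Lep (-0.43) and Cfd (-2.83). Of the mesothelial list Wt1 (0.27) and Msln (-0.83) were on and Upk3b, Krt8 and Lrrn4 off. Schwann cells had 6 of 8 on, beside 62.2% of all protein-coding genes, with S100b (-1.05) and Sox10 (-1.64). Neurons had 5 of 9, with Uchl1 (3.24), Snap25 (4.91), Dbh (2.14) and Th (0.27), while Syt1 was off. Snap25, Dbh and Th each had a second probe that was off.

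**Figure D3:**
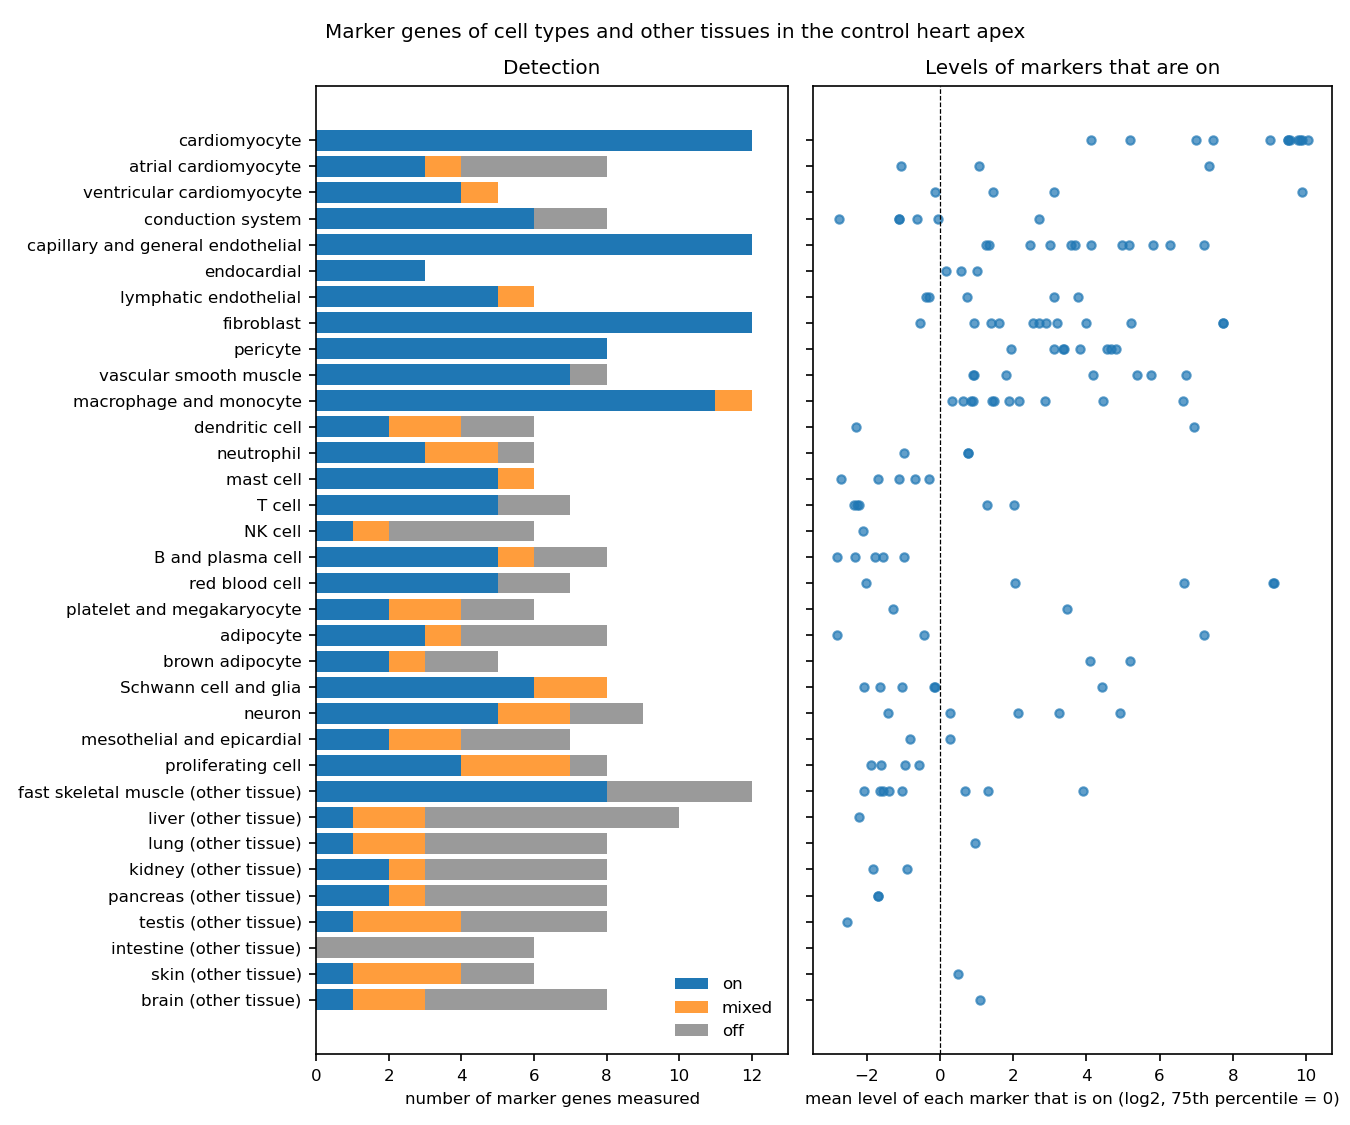
Number of measured marker genes that were on, mixed or off for 25 cell types and 9 other tissues (left), and the mean level of each marker that was on (right, log2, 75th percentile of all probes = 0). The lists of cardiomyocytes, endothelium, fibroblasts and pericytes are filled by genes that are on, and those of intestine and liver hold 0 of 6 and 1 of 10.

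Lists of 8 other organs without muscle held 62 measured genes, of which 9 (14.5%) were on, 14 mixed and 39 off. The defining genes Alb and Apoa1 of liver, Sftpb of lung, Umod of kidney, Ins1 and Ins2 of pancreas, Cdx2 of intestine and Gad1 and Gfap of brain were off. The 9 on were Serpina1a, Ager, Aqp2, Slc34a1, Cela1, Ctrb1, Prm2, Krt10 and Camk2a, at levels from -2.55 to 1.08. The fast skeletal muscle list had 8 of 12 on, near the 62.2% of all protein-coding genes, and Myh1, Myh4, Ryr1 and Actn3 were off. Of its 16 probes 8 were on, and the median level of the genes on was -1.23.

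Gene families tied to other organs set a floor for what on means. Of 1078 olfactory receptors 71 (6.59%) were on, of 261 vomeronasal receptors 13, of 53 keratin-associated proteins 15, of 54 keratins 12, and of 42 beta-defensins 0. The 15 keratin-associated proteins that were on had a median level of 0.65. The olfactory receptors that were on had a median level of -2.07 on slide 1 and -1.42 on slide 2. In 55 of the 71 (77.5%) both arrays of slide 2 lay above both of slide 1, against 10.9% of all genes on, of which 40.2% went the opposite way. With a threshold at the 99th percentile of the negative controls of each array in place of the software's flag, 2.88% of the olfactory receptors and 57.1% of the cell type markers were on. Calls of dim probes thus depend on the threshold.

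Promoters separated genes that were on from genes that were off by their CG content. RefSeq promoters (GRCm38.p6, 250 bases before to 50 after the start) were matched by symbol for 18061 genes of the array, some with several starts. The ratio of observed to expected CG dinucleotides had a median of 0.73 over 12793 promoters of protein-coding genes that were on and 0.24 over 5071 of genes that were off. It exceeded 0.6 in 65.0% and 18.0% of them, and in 35.8% of all 32851 promoters of the table. The 14 promoters of the 12 cardiomyocyte markers went the other way, with a median of 0.21 and 0 above 0.6. These genes were nonetheless on, at levels from 4.11 (Nkx2-5) to 10.07 (Myl3). Olfactory receptors had a median of 0.11. The CArG box is the site that serum response factor binds, and both strands were searched. It occurred in 6 (5.88%) of the 102 promoters found for 79 of the 100 brightest genes. The share was 2.22% in promoters of the other genes among the 1000 brightest and 1.63% in all, and these shares were not tested.

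The 120 bases before the start are shown for 3 contractile genes with few CG, for a pair of bright genes with many, and for Myh4, a fast skeletal myosin that was off. Capitals mark CG. The windows are chr14:54966608-54966727 (minus strand) for Myh6, chr9:110763558-110763677 (plus) for Myl3, chr2:114052876-114052995 (minus) for Actc1, chr8:46211063-46211182 (minus) for Slc25a4, chr11:120348496-120348615 (minus) for Actg1 and chr11:67237692-67237811 (plus) for Myh4.
Myh6: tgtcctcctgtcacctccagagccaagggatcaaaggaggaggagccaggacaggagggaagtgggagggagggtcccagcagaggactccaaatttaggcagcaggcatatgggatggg
Myl3: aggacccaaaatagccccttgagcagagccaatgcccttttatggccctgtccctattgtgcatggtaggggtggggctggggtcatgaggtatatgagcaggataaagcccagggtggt
Actc1: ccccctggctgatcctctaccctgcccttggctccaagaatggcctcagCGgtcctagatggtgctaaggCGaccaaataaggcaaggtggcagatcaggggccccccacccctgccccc
Slc25a4: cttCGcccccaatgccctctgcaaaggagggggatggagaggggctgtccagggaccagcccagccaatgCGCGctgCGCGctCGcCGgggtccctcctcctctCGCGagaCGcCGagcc
Actg1: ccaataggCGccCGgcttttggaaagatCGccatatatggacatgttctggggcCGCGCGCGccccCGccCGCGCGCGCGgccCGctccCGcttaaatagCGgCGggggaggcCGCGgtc
Myh4: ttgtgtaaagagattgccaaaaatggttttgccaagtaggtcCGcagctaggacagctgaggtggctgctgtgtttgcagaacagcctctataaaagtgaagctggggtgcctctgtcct
These windows hold 0 CG in Myh6 and in Myl3, 2 in Actc1, 11 in Slc25a4, 19 in Actg1 and 1 in Myh4. Myh6 and Myh4, at 9.83 and off in this tissue, are thus alike in this respect. A ratio of CG describes a promoter and shows nothing about what binds it.

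The 4 mice differed little. The SD over the arrays was 0.094 at the median of the 12989 genes on, with a 5th to 95th percentile of 0.036 to 0.32. It was 0.081 for the 9096 genes above the 75th percentile and 0.16 for those below. Pearson's r between arrays over these genes, which are not independent replicates, ran from 0.993 to 0.996. The number of genes that differed by more than 2-fold was 30 between replicates 1 and 2 and 184 between replicates 2 and 4, the extremes of the 6 pairs. For 291 probes printed at least 5 times on each array, the SD between single spots of an array was 0.046 at the median. The SD between arrays of the means of these spots, a median of 10 spots per mean, was 0.054, and the 2 values are not of the same kind.

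An SD above 0.5 was found in 233 genes (1.79%) and above 1 in 19. Among the 15 most variable named genes above the 75th percentile, Bbs12 and Umps owed their place to a single array. Bbs12, a chaperonin-like protein of the cilium, read 10.58 on replicate 1 and -1.99, -2.01 and -2.16 on the others. Umps, an enzyme of pyrimidine synthesis, read 10.55 and then 1.64, 1.59 and 1.50. The spots of both probes belong to a cluster of 5 bright spots on replicate 1, in spot rows 85 to 90 and columns 107 to 108 of an array of 384 rows and 164 columns.

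**Figure D4:**
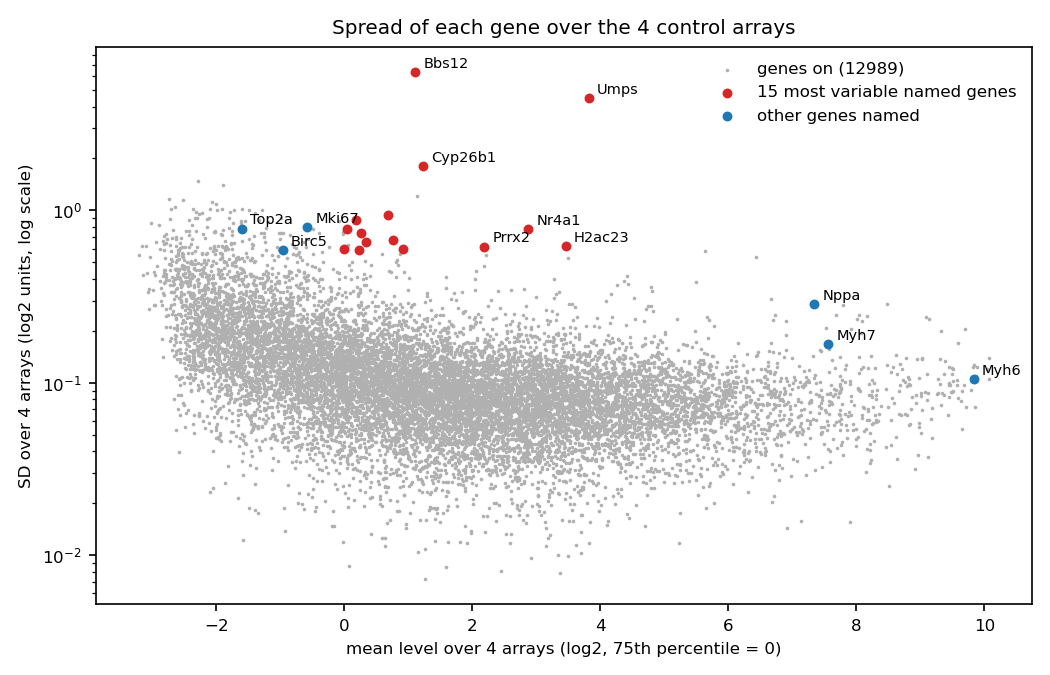
SD over the 4 control arrays (log2 units, log axis) against mean level (log2, 75th percentile = 0) for 12989 genes on, with the 15 most variable named genes in red. The spread is largest for dim genes, and Bbs12 and Umps stand apart at SDs of 6.32 and 4.49.

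More widely, 494 probes exceeded every other array by more than 3 log2 units on 1 array. Of these 423 were on replicate 4, 52 on replicate 3, 18 on replicate 1 and 1 on replicate 2. On replicate 4 they filled a band of the array, and 322 of the 423 spots had another such spot within 3 rows and columns. Apart from the 5 bright spots of replicate 1, none of these probes read above 1.26.

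**Figure D5:**
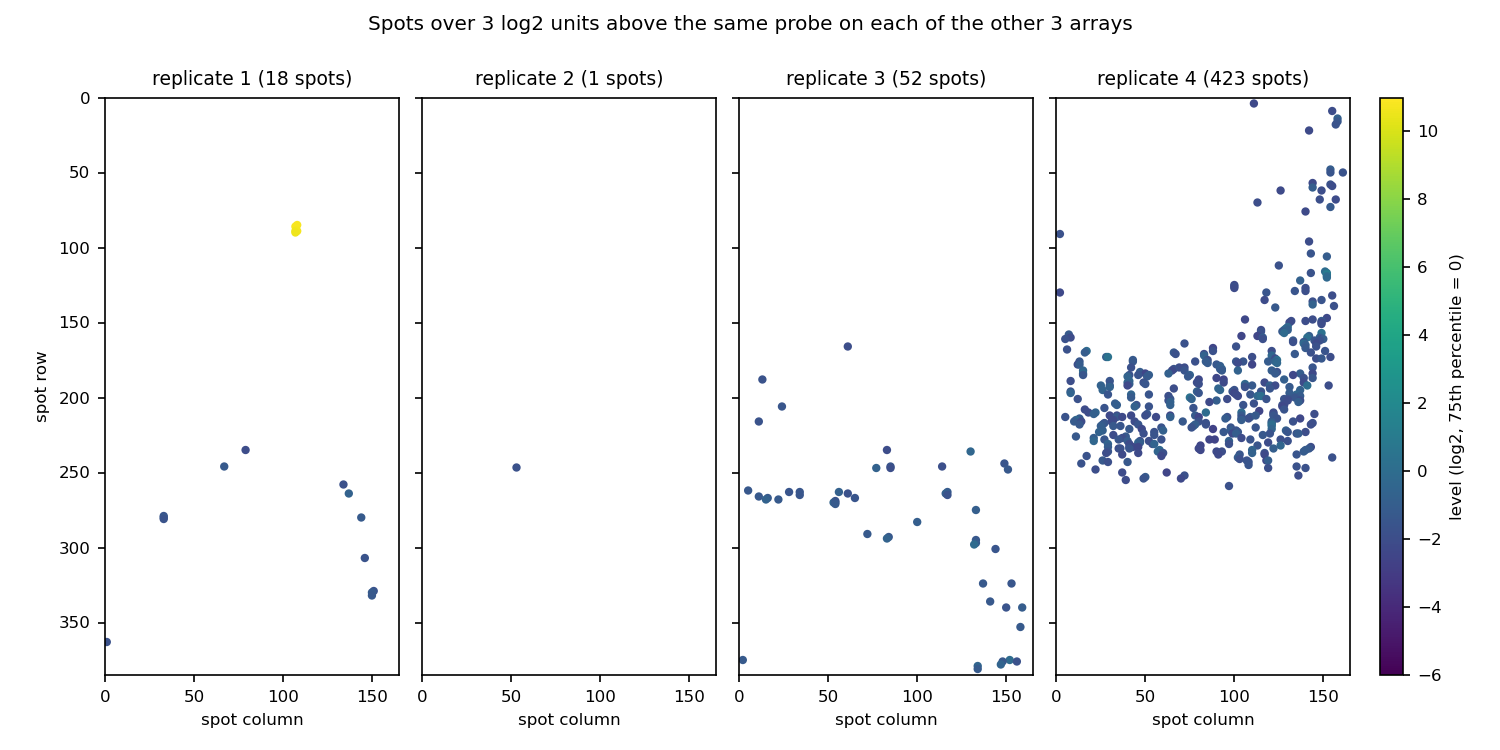
Position on the array of each spot that exceeded the same probe on the 3 other control arrays by more than 3 log2 units, coloured by level (log2, 75th percentile = 0). Replicate 4 holds 423 such spots in a band across the middle and up the right side, and replicate 1 holds 5 bright spots in 1 place.

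Position was tested directly. With limma and Benjamini-Hochberg adjustment over 12993 genes, 116 differed between the slides (0.893%), all of them higher on slide 2, and 98 of the 116 lay at or below the 75th percentile. Over all genes on the median difference, slide 2 minus slide 1, was -0.069. Each slide held 2 control mice, so slide and mice cannot be told apart. Creb3l1, a transcription factor of matrix-secreting cells, read 1.80 and 1.69 on slide 1 and 2.70 and 2.68 on slide 2, a difference of 0.95 ± 0.071 (SE; adjusted p = 0.0256, limma). Rapgef3os2, an antisense RNA, read -0.86 and -0.80 against 0.71 and 0.64, a difference of 1.51 ± 0.068 (adjusted p = 0.018, limma). Arhgap27os3 and Crybg2 differed by 1.31 ± 0.094 and 1.04 ± 0.084 (both adjusted p = 0.0256, limma). Of 71 olfactory receptors tested 15 (21.1%) were called, and of 131 cell type markers 0. Between the 2 rows of arrays on a slide limma called 0 of 12993 genes (0%), with 236 at an unadjusted p under 0.05. The count for slides was 0, 2, 54 and 0 without replicates 1 to 4 in turn, and 5 with quantile normalization of the arrays. Without replicate 2 both calls were lower on slide 2, and without replicate 3 there were 53 higher and 1 lower, so the direction changed with the arrays used.

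Among these 15 genes S100a9 and Hspa1a also had 1 array far from the others, replicate 3 and replicate 2. Cyp26b1, which breaks down retinoic acid, read 0.11, -0.52, 3.46 and 1.86, a 15.9-fold range in which both arrays of slide 2 were above both of slide 1. Its value rests on 1 probe. Prrx2, a mesenchymal homeobox gene, read 1.75, 1.56, 2.69 and 2.74. In 7 of the 15 most variable genes both slide 2 arrays lay above both slide 1 arrays, against 5.26% of all genes on above the 75th percentile. Among them were the receptors Olfr570 and Vmn1r217, Adcyap1r1, Veph1 and Ly6g6d. The 15 were picked for a large SD on these same arrays, so the count only describes them.

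Immediate early genes, which answer a stimulus within minutes, were on in 17 of 18, beside 62.2% of all protein-coding genes. In 12 of the 17 replicate 2 was the highest array, against 30.5% of all genes on. Nr4a1, a nuclear receptor of this group, read 2.31, 3.78, 3.25 and 2.14. Fos read -1.02, 0.67, -0.83 and -0.77, and Egr1 read 1.76, 2.72, 1.86 and 1.92. Hspa1a, the inducible heat shock protein, read -0.12, 1.11, -0.074 and -0.0085. In Fos, Egr1 and Hspa1a replicate 2 was thus above the 3 other arrays, which lay close together.

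Interferon response genes shared an order of the arrays. Of 13 on, 12 were highest on replicate 3 and 12 lowest on replicate 4, whereas 13.4% of all genes on were highest on replicate 3 and 36.0% lowest on replicate 4. Irf7, a transcription factor of the interferon response, read 3.39, 3.29, 3.59 and 2.85, and Isg15, a ubiquitin-like modifier, read 2.53, 2.42, 2.81 and 2.31. The range was below 1 unit in both. The median SD of the list was 0.21, against 0.094 over all genes on.

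Genes of dividing cells were uneven over the arrays. Mki67 read -1.12, 0.048, 0.18 and -1.41, Birc5 read -1.44, -0.68, -0.27 and -1.46, and Ccna2 read -2.42, -1.61, -0.94 and -2.60. Replicates 2 and 3 were the upper arrays in each, and Top2a (-2.54, -1.58, -1.67 and -0.62) differed in being highest on replicate 4. The histone genes H2ac23 (3.04, 3.88, 4.09 and 2.83) and H2ac4 (-0.19, 0.84, 0.94 and -0.54) had the same upper pair as Mki67. In all 4 of 8 proliferation markers were on, and Plk1, Cdk1 and Ccnb1 were above background on 3, 1 and 1 arrays. The 8 markers had 14 probes, of which 4 were on, and only 1 marker had every probe on. The median level of the markers on was -1.28, and the order of the arrays was not tested.

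Of genes that follow feeding and glucocorticoids 14 of 14 were on, beside 62.2% of all protein-coding genes. Pdk4, the kinase that shuts off glucose oxidation on fasting, read 5.39, 6.32, 5.85 and 4.97, and Angptl4, which restrains lipoprotein lipase, read 3.56, 3.80, 3.87 and 2.72. Both were lowest on replicate 4. Clock genes were on in 13 of 14. Dbp, the output gene with the widest daily swing, read 4.63, 4.33, 3.97 and 4.82 and Arntl 0.98, 0.94, 1.18 and 0.93, so Arntl was highest on the array where Dbp was lowest. Tfrc, the transferrin receptor, read 1.57, 0.26, 0.59 and 1.26. The neutrophil genes S100a9 (1.16, 0.94, -0.24 and 1.17) and S100a8 (-0.60, -0.79, -2.08 and -0.50) were both low on replicate 3. The hour of harvest and the state of feeding of the mice are not given in the sources used here, and their part in these values was not tested.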

How the data were processed

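RNA of the heart apex (100 ng per mouse) was labelled with Cy3 and hybridised to 1-colour Agilent mouse arrays, per the labels' protocols. The deposited scanner files hold spot intensity, made with Agilent Feature Extraction 12.0.3.1 per the file headers, with background already subtracted by the software. The deposited table of all samples holds log2 values that the authors centred, used as an alternative. Control spots were left out, 37 of 56605 probes were dropped for outlier flags, spots of a probe were averaged, and log2 intensity was set against the 75th percentile of each array. Accessions in the files were matched to RefSeq (GRCm38.p6), which named 32972 of 56568 probes (58.3%) for 22892 genes, and the other 23596 probes stay unnamed.

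Slides and array rows, read from the file headers, were tested over the 4 control arrays, by limma (version 3.58.1, R 4.3.3), for genes with a probe well above background on 4 of 4 arrays (2 residual and 2.91 prior degrees of freedom for slides), with Benjamini-Hochberg adjustment at 0.05. On simulated data for slides with 12993 genes it recovered 52.5%, 97% and 100% of 200 genes shifted by 0.5, 1 and 2 log2 units, with 10 to 15 false calls. The simulated noise was normal and independent between genes, with no effect shared by an array or a region of it. These rates therefore need not hold for the real arrays. Named were the 25 genes of highest level, the 15 of largest SD among genes on above the 75th percentile, members of the gene lists and up to 4 genes called between slides, passing over genes without a proper name (2 among the brightest). Fos, Egr1, Milr1, Slc10a1, Elk1, Med16 and Mhrt were named after their values were seen. The members and the lists were chosen with earlier results of these data known. The files of the other 12 arrays were not used. Some genes of the lists are not reported here.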

Additional observations from a re-analysis of the deposited data

Results flagged for a closer look

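In 13 of 211 named genes that were on, 1 array stood far from the other 3, with a gap above Dixon's 95% critical value for 4 samples, as a share of the whole range. Chance alone does this in about 1 in 20 groups of 4, and over all 12989 genes on it was 604 (4.65%). The count of 13 cannot be judged against these rates, because some named genes were picked for their spread on these same arrays. Bbs12, Umps, S100a9 and Hspa1a are among the named genes of largest SD, and Fos was named after its values were seen. The largest gaps were Bbs12, at 10.58 on replicate 1 against -2.16 to -1.99 on the others, and Umps, at 10.55 on replicate 1 against 1.50 to 1.64. The inducible genes Hspa1a and Fos stood apart on replicate 2, at 1.11 against -0.12 to -0.0085 and at 0.67 against -1.02 to -0.77. On replicate 3 the neutrophil gene S100a9 was low, at -0.24 against 0.94 to 1.17, and the stress hormone gene Gdf15 was high, at -0.68 against -0.94 to -0.90. Krt10, a keratin, was high on replicate 1 at 0.96 against 0.28 to 0.36. Smaller gaps were found for Prox1 (2.97 on replicate 4 against 3.17 to 3.19), Fabp5 (4.45 on replicate 4 against 4.74 to 4.80), Cidea (5.08 on replicate 3 against 5.21 to 5.23), Ednra (2.97 on replicate 3 against 3.05 to 3.07), Myl6b (-0.14 on replicate 3 against -0.040 to -0.024) and Slc2a1 (1.77 on replicate 1 against 1.70 to 1.71).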

How the results depend on the processing

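No paired analysis was possible because a single group is described. The counts of genes on and off stayed within 1.5 times their values under every alternative run, from 10513 on when every probe of a gene had to be on to 14076 on by slide 1 alone. The share of olfactory receptors on moved from 6.59% to 2.88% with the negative control threshold and to 8.53% by slide 1 alone. The share of cell type markers on moved from 69.3% to 57.1% with that threshold, to 57.1% with every probe and to 76.2% by slide 1 alone. Slide 1 and slide 2 alone were chosen after seeing the data. The median SD of 0.094 was 0.083 with quantile normalization, 0.086 with scaling to detected probes, 0.083 in the authors' deposited values and 0.086 to 0.093 without 1 replicate. The 116 genes that differed between slides were 5 with quantile normalization, 0 with no filter on dim probes, 27 with bright probes, 59 with slide and row in a fit, 34 in the authors' deposited values and 0 to 54 without 1 replicate. The 0 genes that differed between rows were 11 with bright probes and 0 to 30 without 1 replicate, where a lone array is assumed to vary like the others. Of the 100 brightest genes 74 were shared when the median of a gene's probes was taken and 99 to 100 without 1 replicate. The mean of all probes moved the level of 84 of 211 named genes by more than their SD, and normexp background correction that of 137.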

Other observations

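Long noncoding RNAs and imprinted genes were present in the adult apex. Norad, which binds Pumilio proteins, read 6.58, 6.63, 6.53 and 6.57, with 4 of 4 probes on but the dimmest at -1.31. Neat1 (0.46), a scaffold of paraspeckles, Kcnq1ot1 (2.65) and Airn (1.35), which silence neighbouring imprinted genes, and Tug1 (-1.58) were on. H19, an imprinted RNA of fetal muscle, read 2.27, 1.90, 1.84 and 1.82, so replicate 1 was above the other arrays. Of 12 fetal growth and imprinted genes 10 were on, with Igf2r (3.81) and Cdkn1c (3.80) brightest, and Dlk1 and Peg3 were mixed. Miat, a long noncoding RNA studied in infarction, was off.

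All 7 heat shock genes listed were on. Hspa8 (7.17), Hspb1 (7.92) and Hsp90aa1 (4.89) had SDs of 0.095, 0.078 and 0.071, and Hspa1a (0.23) and Hspa1b (-1.63) had 0.59 and 0.46.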
